A study of Mus musculus with 79 samples.

Results

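The enzymes that make, break down and respond to the cyclic nucleotides cAMP and cGMP were followed across 5 groups of mouse neurons. Members were taken by gene symbol alone: adenylyl cyclases (Adcy and a number), guanylyl cyclases (Gucy and a number), phosphodiesterases (Pde, a number and a letter from a to d), protein kinase A subunits (Prkac and Prkar) and cGMP-dependent protein kinases (Prkg) in the deposited table. This gave 49 of 25899 listed genes: 22 phosphodiesterases, 10 adenylyl cyclases, 9 guanylyl cyclases, 6 protein kinase A subunits and 2 cGMP-dependent kinases. The symbol rule also takes Pde6d, a prenyl-binding protein that is not itself an enzyme and is counted here with the phosphodiesterases.

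The 79 libraries held ribosome-bound polyA RNA captured by bacTRAP, in which a bacterial artificial chromosome (BAC) transgene puts a GFP-tagged ribosomal protein, L10a, into the cells that use a chosen promoter. All mice were heterozygous for such a transgene on C57BL/6J, driven by the Drd1a promoter (D1 groups) or the Drd2 promoter (D2 groups), and none had a drug treatment in the labels. Dorsal striatum gave 15 D1 and 16 D2 libraries, ventral striatum (nucleus accumbens, taken as punches) 15 D1 and 14 D2 libraries, and prefrontal cortex 19 D1 libraries. Each library pooled 3 mice of both sexes, ages were not in the labels used here, and a group is every cell type in which its promoter is active rather than 1 cell type. A mean ± SD below is over all libraries of its group (n = 15, 16, 15, 14 and 19 for D1 dorsal, D2 dorsal, D1 ventral, D2 ventral and cortex, the order used throughout).

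In these pathways adenylyl cyclases turn ATP into cAMP, which releases the catalytic subunits of protein kinase A from their regulatory subunits. Soluble guanylyl cyclase, a dimer of an alpha and a beta subunit, makes cGMP when nitric oxide binds it, and cGMP acts through protein kinase G, ion channels and some phosphodiesterases. Phosphodiesterases hydrolyse one or both nucleotides and so end the signal. In striatal projection neurons the D1 receptor raises cAMP through the G protein Golf and the D2 receptor lowers it through Gi, and the receptors mark largely separate projection neurons.

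Promoter sequence is shown for 3 members that lead their enzyme sets in at least 1 group below: Adcy5, Pde10a and Gucy1b3. Each line is the 250 bases before a RefSeq transcription start (GRCm38.p6), written 5′ to 3′ on the gene's strand, in a window that overlaps no annotated exon. Capitals mark the letters CCAAT and GGGCGG, textbook proximal promoter motifs, and TGACG, one side of the cAMP response element TGACGTCA, each read on both strands. In Gucy1b3 a CGTCA and an ATTGG share 1 base.
Adcy5, chr16:35154614-35154863, plus strand: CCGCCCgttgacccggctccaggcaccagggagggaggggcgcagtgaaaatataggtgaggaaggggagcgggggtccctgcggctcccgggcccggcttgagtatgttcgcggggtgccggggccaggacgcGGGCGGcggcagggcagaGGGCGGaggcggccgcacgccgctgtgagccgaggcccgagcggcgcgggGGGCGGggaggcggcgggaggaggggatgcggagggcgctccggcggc
Pde10a, second of 2 listed starts, chr17:8849735-8849984, plus strand: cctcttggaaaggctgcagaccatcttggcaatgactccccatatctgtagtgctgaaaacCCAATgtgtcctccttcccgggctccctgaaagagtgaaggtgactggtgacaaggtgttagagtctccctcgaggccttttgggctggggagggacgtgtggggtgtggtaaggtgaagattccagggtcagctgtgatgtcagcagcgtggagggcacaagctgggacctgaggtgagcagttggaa
Gucy1b3, chr3:82074712-82074961, minus strand: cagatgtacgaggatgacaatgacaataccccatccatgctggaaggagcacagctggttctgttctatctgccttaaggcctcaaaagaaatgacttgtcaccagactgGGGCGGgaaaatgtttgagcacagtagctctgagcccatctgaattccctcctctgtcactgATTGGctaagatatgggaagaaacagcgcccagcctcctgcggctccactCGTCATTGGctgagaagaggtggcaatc
Adcy5 held 4 GGGCGG letters and neither of the other motifs. The second Pde10a start held 1 CCAAT and no GGGCGG or TGACG. Gucy1b3 held 2 CCAAT, 1 GGGCGG and 1 TGACG. A promoter entry existed for 39 members, and at least 1 start held TGACG in 13 of them (33.3%), against 19.8% of 27025 genes with an entry. The full TGACGTCA was found in 1 of the 39 (Prkar1a) and in 1.77% of all genes. GGGCGG was found in 25 of 39 members (64.1%) against 35.4% of all genes, and CCAAT in 20 of 39 (51.3%) against 37.5%. A gene with more listed starts has more windows in which to match. Members had up to 6, and the number of starts was not matched between members and all genes. These are letter matches and no binding was measured.

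Levels are the authors' CPM, reads per gene scaled to a total per library, and differences are on log2(CPM + 0.5). A gene entered a comparison if its number of libraries at 1 CPM or more was at least the size of the smaller group, and was called at an adjusted p under 0.05 from limma with Benjamini-Hochberg adjustment over all genes tested. Of the 49 members, 36 were tested in at least 1 of 6 pairwise comparisons and 29 in all of them. Of these 36, 35 were called at least once, as were 86.7% of all genes tested, and 26 were called with a difference of at least 2-fold somewhere, as were 21.7% of all genes. Of the 29, 10 were called in all 6, beside 3.05% of all genes tested in all 6. Pde8a, a cAMP-specific phosphodiesterase, was tested once and not called.

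Reads in genes ran from 7.35 to 30.8 M per library (median 17.5 M), and 1 read was worth 0.0124 to 0.0466 CPM. Library names start with letter codes of unstated meaning (EM, OdP, BdP, JAG) that were spread unevenly: EM made up 11, 8, 11, 8 and 15 libraries of the groups in that order, and OdP 8 in D2 dorsal and 5 in D2 ventral striatum but 0 in D1 dorsal striatum. Within D2 dorsal striatum, 8 EM against 8 OdP libraries differed in 10 of 30 members tested, 9 of them lower in EM, with 30.2% of all genes called. The largest were Prkaca (log2 difference -1.04), Gucy1a2 (-0.83) and Gucy1a3 (-0.71). Differences within EM libraries are therefore given beside part of the named results. All 13 dorsal and 24 ventral receptor calls kept their direction in EM libraries, and 7 and 20 kept their call. Of the 23 regional calls in each receptor 21 (D1) and 20 (D2) were also called there in the same direction, as were 28 and 30 of the 30 cortical calls against dorsal and ventral striatum. In striatum Drd1a and Drd2 followed the labels, with mean Drd1a of 225, 15.2, 157, 16.8 and 18.8 CPM and mean Drd2 of 6.30, 1146, 8.97, 656 and 1.08 CPM in the same order. In prefrontal cortex Drd1a was near its level in the D2 striatal groups, so this marker does not set that group apart. Summed over 4 cortical glutamatergic markers (Slc17a7, Neurod6, Neurod2, Tbr1), D1 dorsal striatum held 23.9 to 107 CPM (median 78.9), D2 dorsal striatum 0.928 to 27.9 CPM (median 6.10), D1 ventral striatum 13.7 to 92.1 CPM (median 53.4), D2 ventral striatum 2.79 to 66.4 CPM (median 9.21) and prefrontal cortex 448 to 772 CPM (median 497). None of the 4 was at 0 throughout any group, and all 4 averaged at least 1 CPM in every group.

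**Figure D1:**
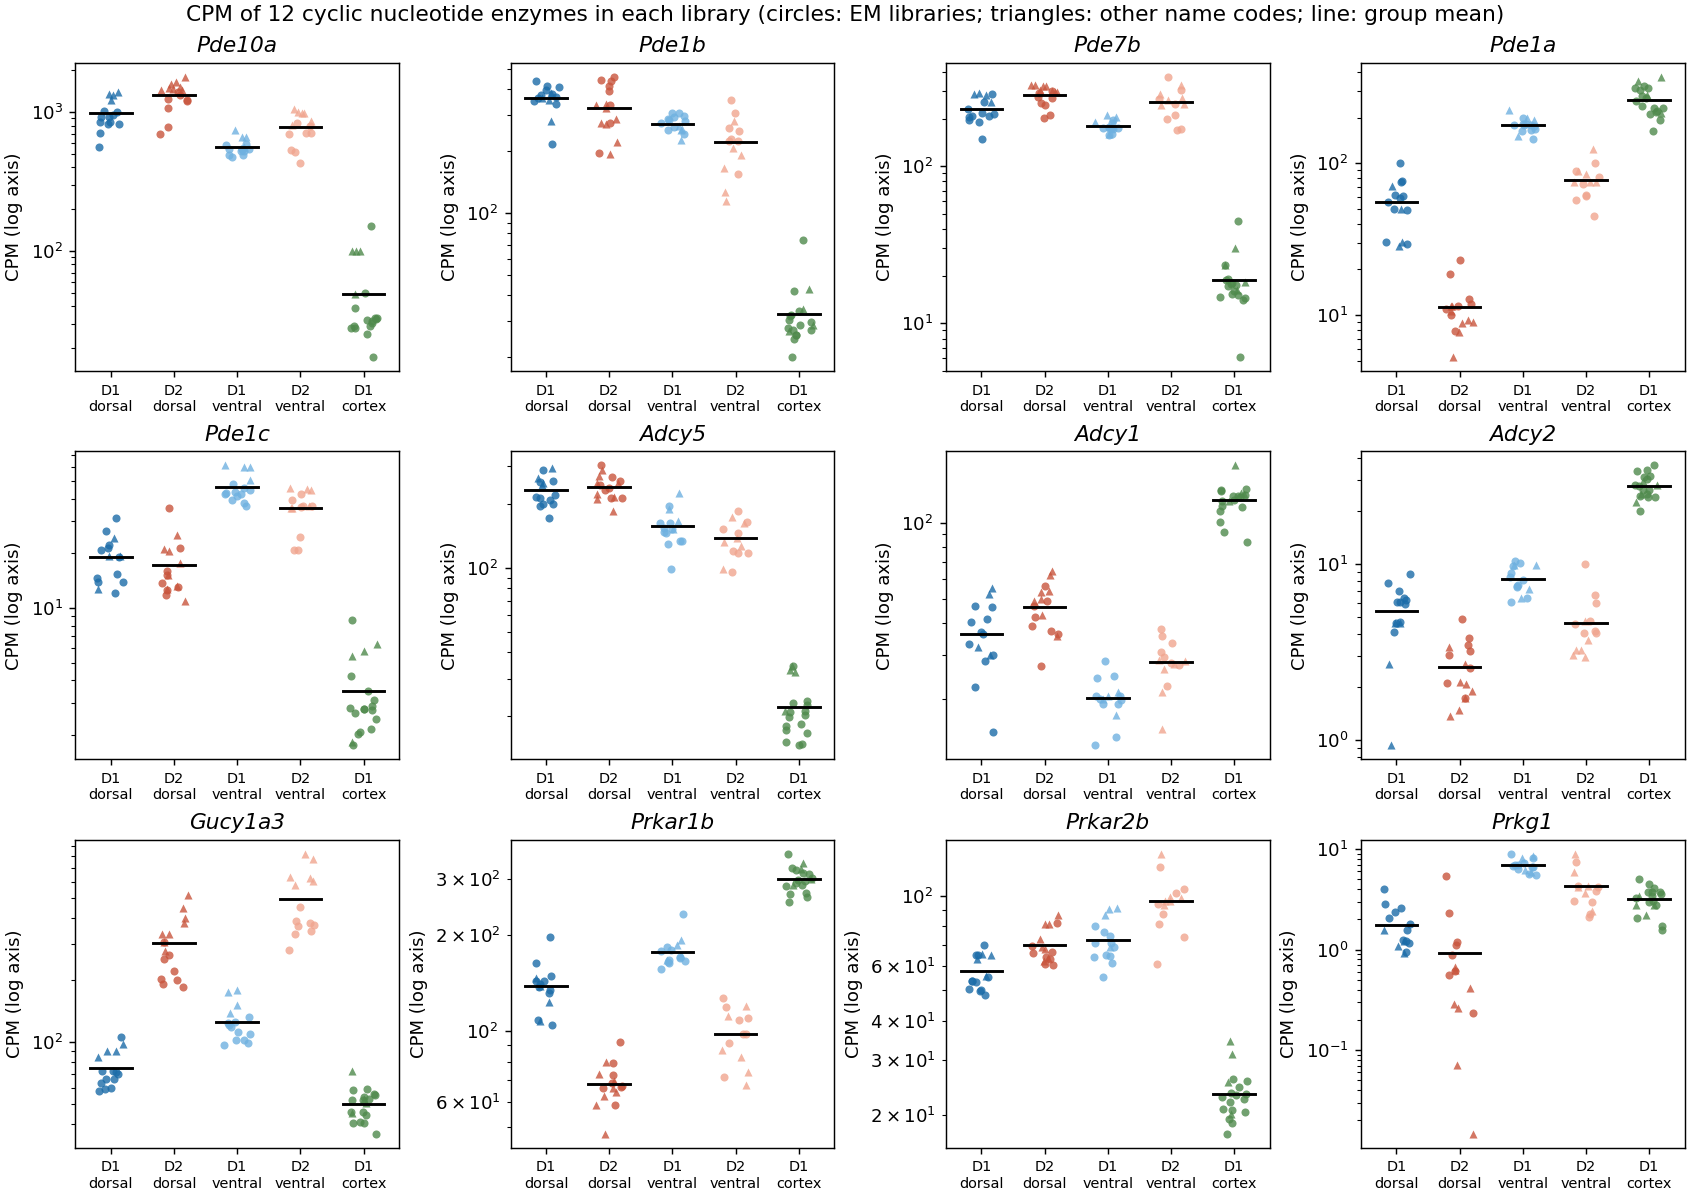
CPM (log axis) of 12 members in every library of the 5 groups, with circles for EM libraries, triangles for other name codes and a line at the group mean. Pde10a, Pde1b, Pde7b and Adcy5 are lower in every prefrontal cortex library than in any D1 striatal one, Pde1a is lowest in D2 dorsal striatum (5.30 to 23.0 CPM), and Gucy1a3 is higher in every D2 library than in any D1 library of the same region.

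Adenylyl cyclases differed most between striatum and cortex. Adcy5, the main striatal isoform, was 172 to 296 CPM (median 220.1) in D1 dorsal striatum, 186 to 303 CPM (median 241) in D2 dorsal striatum, 98.5 to 224 CPM (median 152) in D1 ventral striatum, 95.7 to 185 CPM (median 135) in D2 ventral striatum and 14.6 to 34.5 CPM (median 20.9) in prefrontal cortex. Every cortical library lay below every D1 striatal library (log2 difference -3.39, SE 0.11, adjusted p = 6.98e-26 against dorsal and log2 difference -2.82, SE 0.11, adjusted p = 7.37e-24 against ventral striatum), and in EM libraries alone the differences were -3.44 and -2.86. Adcy5 was also higher in dorsal than ventral striatum, by 0.57 (SE 0.09, adjusted p = 7.81e-06) in D1 and 0.82 (SE 0.09, adjusted p = 1.35e-08) in D2, the D2 groups without overlap. No D1 against D2 call was made for Adcy5, with -0.06 (adjusted p = 0.594) in dorsal and 0.18 (adjusted p = 0.147) in ventral striatum.

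Adcy1, a cyclase stimulated by calcium and calmodulin, had the opposite regional order. It was 84.1 to 168 CPM (median 127) in prefrontal cortex, against 14.8 to 55.1 (median 36.4) in D1 dorsal, 27.2 to 64.3 (median 47.8) in D2 dorsal, 13.2 to 28.4 (median 20.1) in D1 ventral and 15.2 to 37.8 (median 28.0) in D2 ventral striatum. All cortical libraries exceeded all D1 striatal ones (log2 difference 1.79, SE 0.12, adjusted p = 1.26e-16 against dorsal and log2 difference 2.58, SE 0.08, adjusted p = 8.27e-27 against ventral striatum). Within striatum Adcy1 was higher dorsally, by 0.79 in D1 and 0.72 in D2, as Adcy5 was. It was lower in D1 than D2, with a log2 difference of -0.38 (SE 0.14, adjusted p = 0.0400) in dorsal and -0.45 (SE 0.11, adjusted p = 0.00141) in ventral striatum, where the ranges overlapped, and the dorsal call was lost under 5 alternatives, among them EM libraries alone (-0.32, adjusted p = 0.291).

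Adcy2, a cyclase stimulated by G protein beta-gamma subunits, was 20.1 to 36.3 CPM (median 27.7) in prefrontal cortex. It was 0.934 to 8.74 (median 5.93) in D1 and 1.36 to 4.85 (median 2.35) in D2 dorsal striatum, and 6.06 to 10.3 (median 8.08) in D1 and 2.95 to 9.95 (median 4.11) in D2 ventral striatum. Cortex stood above both D1 striatal groups without overlap (log2 difference 2.36, SE 0.15, adjusted p = 4.12e-17 and log2 difference 1.70, SE 0.08, adjusted p = 2.95e-21). Adcy2 was higher in D1 than D2 by 0.88 (SE 0.19, adjusted p = 6.69e-04) in dorsal and 0.82 (SE 0.13, adjusted p = 9.93e-06) in ventral striatum (EM alone 0.91 and 0.58). The cortical markers given above were also higher in D1 than D2 libraries of both regions, and their part in this difference was not tested.

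Adcy6, a cyclase inhibited by calcium, was 0.772 to 8.14 CPM (median 5.72) in cortex. Its ranges were 0.337 to 5.46 (median 1.44), 0.116 to 2.24 (median 0.911), 0.662 to 2.37 (median 1.45) and 0.582 to 2.58 (median 1.24) in D1 dorsal, D2 dorsal, D1 ventral and D2 ventral striatum. Cortex was higher by 1.59 (SE 0.20, adjusted p = 9.36e-09) and 1.62 (SE 0.17, adjusted p = 6.95e-11), although its lowest library lay among the striatal values. Adcy8, another calcium-stimulated cyclase, averaged 3.16 ± 1.37 CPM in cortex and 0.484 to 0.915 CPM in the striatal groups, and was higher in cortex by 1.55 and 1.35. Adcy3 averaged 11.2 ± 2.65, 11.1 ± 2.46, 8.28 ± 2.07, 5.71 ± 1.65 and 5.91 ± 1.19 CPM in the order of groups above and was called in 5 comparisons, among them higher in dorsal than ventral D2 libraries (0.92). Its exons overlap those of Cenpo on the other strand over 22.1% of their length, and Cenpo averaged 5.16 to 8.0 CPM, so reads of this stretch cannot be assigned where counting ignored strand, which is not stated. Adcy9 averaged 12.0 ± 3.94, 9.94 ± 3.87, 8.78 ± 1.76, 6.46 ± 1.99 and 9.47 ± 2.47 CPM and was called once, higher in D1 than D2 ventral striatum (0.46, adjusted p = 0.00850). That call was lost in a fit holding each library's fraction of reads in genes (0.13, adjusted p = 0.715) and in one fit of all 5 groups (0.46, adjusted p = 0.0537).

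Per kilobase of exon, Adcy5 made up 78.9% ± 3.40, 80.4% ± 2.34, 75.5% ± 3.43 and 76.3% ± 3.62 (SD) of the summed adenylyl cyclase level in D1 dorsal, D2 dorsal, D1 ventral and D2 ventral striatum. In prefrontal cortex it made up 13.2% ± 3.78, after Adcy1 at 41.5% ± 2.94 and Adcy2 at 28.2% ± 4.05. The summed level itself was 40.9 ± 6.28 CPM per kilobase in D1 dorsal striatum, 28.7 ± 4.61 in D1 ventral striatum and 23.6 ± 2.62 in prefrontal cortex. These shares describe the libraries and were not tested.

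**Figure D2:**
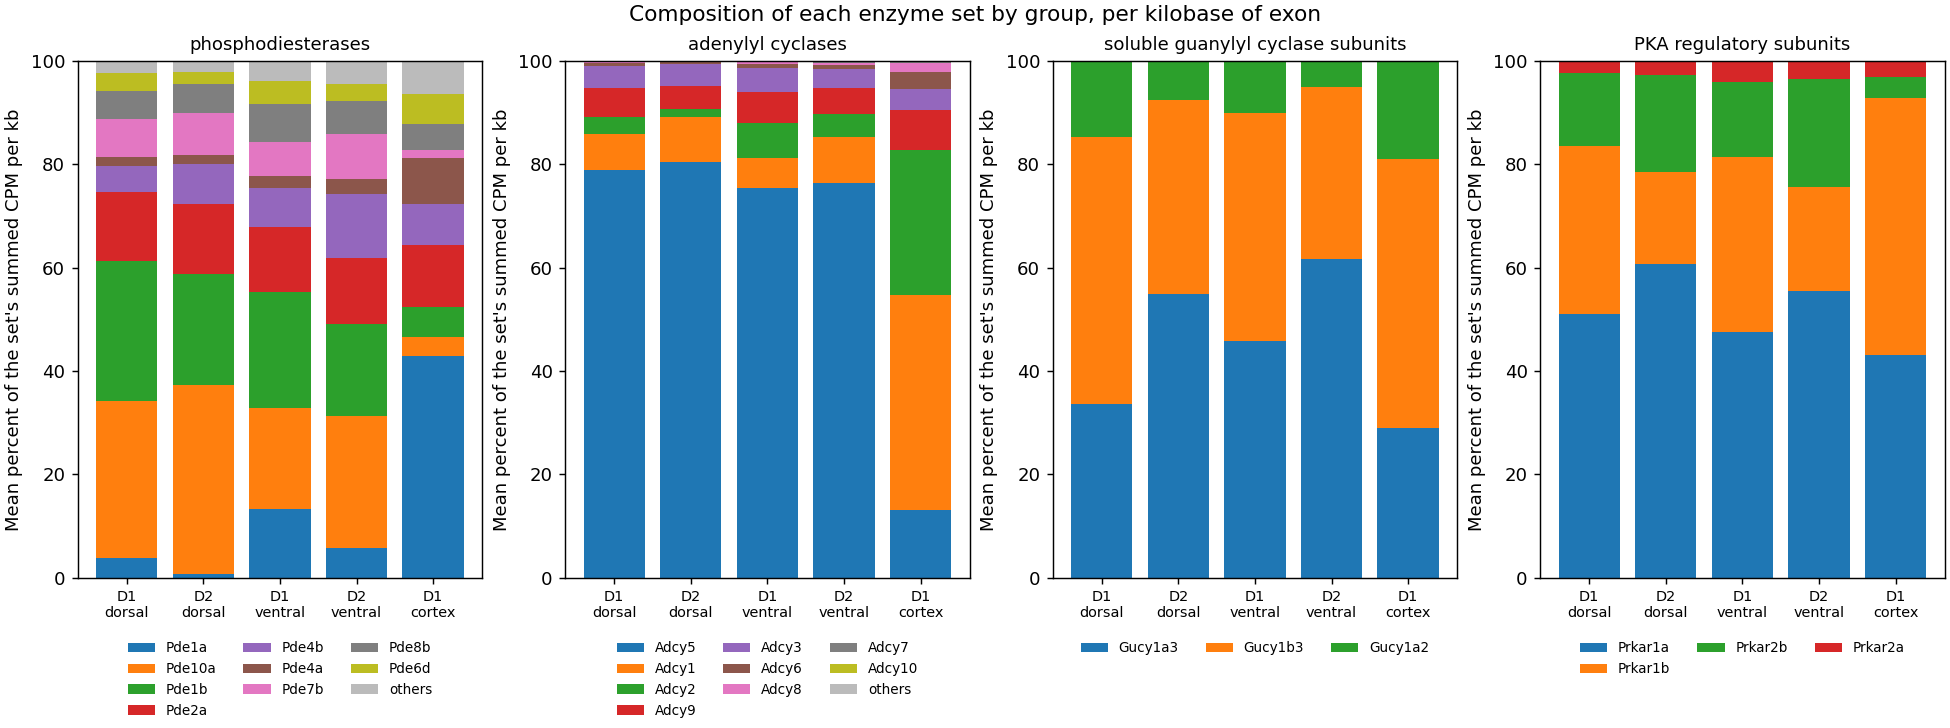
Mean percent that each gene takes of its enzyme set's summed CPM per kilobase of exon, as stacked bars for the 5 groups. Adcy5 fills 75.5% to 80.4% of the cyclase bars in striatum and 13.2% in cortex, Pde1a fills 42.9% of the phosphodiesterase bar in cortex, and Gucy1a3 takes 54.9% and 61.8% of the soluble guanylyl cyclase bars of D2 dorsal and D2 ventral striatum.

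The soluble guanylyl cyclase subunit genes Gucy1a3 and Gucy1b3 were higher in D2 than D1 neurons of both striatal regions. Gucy1a3, the alpha 1 subunit (now named Gucy1a1, chr3:82092427-82145789, minus strand), was 57.6 to 105 CPM (median 71.7) in D1 and 186 to 521 CPM (median 291) in D2 dorsal striatum. In ventral striatum it was 96.4 to 178 (median 121) in D1 and 280.4 to 821 (median 419.8) in D2. Neither region's groups overlapped, and the differences were -1.96 (SE 0.13, adjusted p = 1.38e-14) and -1.93 (SE 0.14, adjusted p = 1.84e-13). In EM libraries alone they were -1.71 and -1.69. Because whole capture pools are compared, fewer cells of a type and less RNA per cell cannot be told apart, here or below.

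Gucy1b3, the beta 1 subunit (now Gucy1b1, chr3:82032006-82074689, minus strand), lies 17737 bases from Gucy1a3 with 0 annotated genes between them, and its promoter is the third shown above. It was 53.9 to 75.7 CPM (median 61.4) in D1 and 92.1 to 127 CPM (median 113) in D2 dorsal striatum, and 57.5 to 79.8 (median 68.4) in D1 and 97.8 to 197 (median 135) in D2 ventral striatum, again without overlap. The differences of -0.78 (SE 0.07, adjusted p = 2.64e-11) and -1.05 (SE 0.09, adjusted p = 1.17e-11) were smaller than those of the alpha 1 subunit, which was not tested between the genes. Gucy1a2, the alpha 2 subunit, averaged 31.3 ± 6.97, 39.5 ± 12.7, 26.0 ± 4.30, 37.8 ± 10.1 and 31.0 ± 4.27 CPM and was called lower in D1 in the ventral test (-0.50, adjusted p = 5.69e-04); dorsally it was -0.30 (adjusted p = 0.113). The ventral call was lost in the fit with the fraction of reads in genes (-0.24, adjusted p = 0.304).

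By region, Gucy1a3 was lower in dorsal than ventral striatum in both receptors (-0.74 in D1 and -0.71 in D2), and prefrontal cortex held 35.8 to 72.5 CPM (median 52.2), below D1 dorsal (-0.57) and D1 ventral striatum (-1.31, no overlap). Gucy1b3 held 42.1 to 70.6 CPM (median 50.3) in cortex, with -0.34 and -0.41 against the same groups. Its D2 dorsal against ventral difference of -0.33 was lost under 4 alternatives, including scaling by median ratios (-0.20, adjusted p = 0.0964). Per kilobase, Gucy1a3 made up 33.7% ± 3.40 of the 3 subunits in D1 dorsal striatum and 54.9% ± 6.54 in D2 dorsal striatum, 45.8% ± 4.41 and 61.8% ± 8.81 in D1 and D2 ventral striatum, and 29.0% ± 2.89 in cortex. In D1 dorsal striatum and in cortex the beta subunit Gucy1b3 was the highest of the 3, at 51.5% ± 4.93 and 52.1% ± 3.71.

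Other cell types move with the receptor labels too. Summed over the 3 listed cholinergic interneuron markers, D2 libraries held 2.89 to 14.2 CPM (median 6.32) in dorsal and 6.63 to 15.1 CPM (median 12.2) in ventral striatum, against 0.365 to 1.59 CPM (median 0.751) and 0.559 to 2.69 CPM (median 1.34) in D1. All 3 averaged at least 1 CPM in the D2 groups and none did in the D1 groups. Oligodendrocyte markers summed to 51.6 to 169.7 CPM (median 73.5) in D1 and 66.6 to 204 CPM (median 109.8) in D2 dorsal striatum, and to 42.5 to 75.2 CPM (median 46.7) in D1 and 49.3 to 196 CPM (median 80.5) in D2 ventral striatum. The 6 GABA interneuron markers summed to 13.9 to 57.8 CPM (median 31.2) in D1 and 3.36 to 24.9 CPM (median 10.8) in D2 dorsal striatum, and to 11.2 to 39.3 CPM (median 18.8) and 10.2 to 34.5 CPM (median 21.6) in ventral striatum. The part of these cells in the receptor differences was not tested. Among membrane guanylyl cyclases, Gucy2g was the only one tested, averaging 1.69 ± 0.683 CPM in cortex and 0.0331 to 0.192 CPM in the striatal groups (1.62 and 1.61).

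Phosphodiesterases held the largest differences of the set. Pde10a, which hydrolyses both nucleotides and marks striatal projection neurons (chr17:8525372-8986648, plus strand), was 559 to 1393 CPM (median 929) in D1 and 691 to 1786 CPM (median 1413) in D2 dorsal striatum. It was 476 to 744 (median 542) in D1 and 428 to 1055 (median 801) in D2 ventral striatum, and 17.3 to 151 (median 32.5) in prefrontal cortex. Cortex lay below both D1 striatal groups without overlap, with log2 differences of -4.52 (SE 0.21, adjusted p = 2.08e-21) and -3.75 (SE 0.20, adjusted p = 4.99e-20). The highest cortical value came from replicate 6, which also held the highest sum of 5 striatal projection neuron markers in cortex (332 CPM, next 272 CPM, group median 138 CPM). Without that library the differences were -4.62 and -3.86, and in EM libraries -4.62 and -3.94.

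Dorsal striatum had more Pde10a than ventral striatum, by 0.77 (SE 0.10, adjusted p = 3.41e-07) in D1 and 0.78 (SE 0.14, adjusted p = 3.14e-05) in D2. D1 neurons had less than D2 neurons, with log2 differences of -0.44 (SE 0.13, adjusted p = 0.0110) in dorsal and -0.43 (SE 0.11, adjusted p = 0.00222) in ventral striatum, with overlapping ranges. In EM libraries the receptor differences were -0.36 (adjusted p = 0.101) and -0.26 (adjusted p = 0.0533), so neither call held there. The ventral call was also lost in the fit with the fraction of reads in genes (-0.38, adjusted p = 0.101). Quantile normalization gave -0.25 (adjusted p = 0.142) and -0.17 (adjusted p = 0.161), and OdP libraries of D2 dorsal striatum were higher than EM ones by 0.51 in log2.

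Pde1b, activated by calcium and calmodulin, was 217 to 437 CPM (median 369), 195 to 459 (median 330.3), 227 to 307 (median 275) and 114 to 355 (median 225) in D1 dorsal, D2 dorsal, D1 ventral and D2 ventral striatum, and 20.0 to 74.5 (median 28.7) in cortex. Pde7b, specific for cAMP, was 148 to 291 CPM (median 219), 204 to 329 (median 297), 157 to 211 (median 176) and 169 to 369.7 (median 256) in the same order, and 6.10 to 44.6 (median 17.5) in cortex. Both were lower in every cortical library than in any D1 striatal one: Pde1b had log2 differences of -3.52 and -3.12, and Pde7b of -3.65 and -3.30 (largest adjusted p = 1.02e-23). Between receptors they went in opposite directions in ventral striatum, with Pde1b higher in D1 (0.37, SE 0.12, adjusted p = 0.0131) and Pde7b lower (-0.48, SE 0.09, adjusted p = 9.92e-05). The Pde1b call was lost in EM libraries (0.19, adjusted p = 0.162) and in the fit with the fraction of reads in genes (0.11, adjusted p = 0.717), while Pde7b kept -0.43. Within striatum Pde1b was higher dorsally in both receptors (0.40 and 0.57), and Pde7b in D1 (0.35).

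Pde1a, the paralog of Pde1b with the same calcium and calmodulin control (chr2:79834453-80129458, minus strand), followed another order. It was 5.30 to 23.0 CPM (median 10.9) in D2 dorsal striatum, 28.3 to 100.3 CPM (median 55.4) in D1 dorsal striatum, 45.3 to 124 CPM (median 75.4) in D2 ventral striatum, 144 to 226 CPM (median 179) in D1 ventral striatum and 162 to 370.3 CPM (median 259) in prefrontal cortex. Neighbours in this order did not overlap between D2 and D1 dorsal striatum or between D2 and D1 ventral striatum, while D1 dorsal and D2 ventral striatum overlapped, as did D1 ventral striatum and cortex. The receptor difference was 2.22 (SE 0.17, adjusted p = 1.17e-12) in dorsal and 1.23 (SE 0.10, adjusted p = 1.12e-11) in ventral striatum, and the difference between them, 0.99 (SE 0.21, adjusted p = 0.00171), passed the interaction test. Dorsal striatum was lower than ventral striatum, with a log2 difference of -1.78 (SE 0.14, adjusted p = 2.36e-12) in D1 and -2.77 (SE 0.15, adjusted p = 9.04e-17) in D2, both without overlap. Cortex exceeded D1 dorsal striatum by 2.30 (SE 0.14, adjusted p = 1.23e-17) and D1 ventral striatum by 0.53 (SE 0.09, adjusted p = 1.57e-06).

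In EM libraries the Pde1a receptor differences were 2.09 and 1.33, and the interaction was 0.77 (adjusted p = 0.106), no longer called. Pde1a was high in cortex, and the cortical markers were higher in D1 than D2 striatal libraries, with medians of 78.9 and 6.10 CPM dorsally and 53.4 and 9.21 CPM ventrally; their part in the receptor difference was not tested. Leaving out D2 dorsal striatum replicate 1, which held the highest cortical marker sum of its group (27.9 CPM), gave a dorsal difference of 2.29.

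Pde1c, the third calcium-activated member, was 36.3 to 61.0 CPM (median 43.3) in D1 and 20.9 to 46.1 (median 36.5) in D2 ventral striatum. It was 12.1 to 31.5 (median 19.3) and 10.9 to 35.7 (median 15.2) in D1 and D2 dorsal striatum, and 1.76 to 8.61 (median 2.79) in cortex. Dorsal striatum was lower, with a log2 difference of -1.29 (SE 0.12, adjusted p = 4.59e-11) in D1, without overlap, and -1.06 (SE 0.15, adjusted p = 5.32e-07) in D2. Cortex was lower still, with a log2 difference of -2.37 against dorsal and -3.66 against ventral striatum. The 3 Pde1 genes thus had their highest group mean in different places: Pde1a in prefrontal cortex, Pde1b in D1 dorsal striatum and Pde1c in D1 ventral striatum.

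Pde2a, a phosphodiesterase stimulated by cGMP, was 133 to 238 CPM (median 213), 136 to 305 (median 252), 157 to 192 (median 171) and 122 to 248 (median 190.3) in D1 dorsal, D2 dorsal, D1 ventral and D2 ventral striatum, and 51.6 to 95.6 (median 72.9) in cortex (-1.45 and -1.25, no overlap). In GENCODE vM21, 64.3% of its exon length also belongs to Gm45837 on the same strand, a gene that the deposited table does not list. Pde8b, specific for cAMP, was 66.5 to 95.6 CPM (median 78.5) in D1 and 67.5 to 103 CPM (median 90.3) in D2 dorsal striatum, 86.1 to 114 (median 96.9) and 76.3 to 109 (median 81.5) in D1 and D2 ventral striatum, and 23.8 to 37.9 (median 30.2) in cortex. It too was lower in cortex without overlap (-1.35 and -1.69). Its receptor difference changed sign between regions, -0.20 (SE 0.07, adjusted p = 0.0215) dorsally and 0.20 (SE 0.07, adjusted p = 0.0200) ventrally, and the interaction of -0.40 (SE 0.09, adjusted p = 0.00363) was called, also in EM libraries (-0.47). The dorsal call was lost under 3 alternatives (adjusted p up to 0.122) and the ventral call with edgeR (0.0519) and DESeq2 (0.0577).

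The Pde4 genes encode cAMP-specific enzymes and did not move as one. Pde4b was 90.0 to 192 CPM (median 122) in D1 and 133 to 357 (median 231) in D2 dorsal striatum, 138 to 287 (median 156) and 173 to 468 (median 307) in D1 and D2 ventral striatum, and 59.2 to 119 (median 79.5) in cortex. It was lower in D1 than D2, with log2 differences of -0.73 (SE 0.14, adjusted p = 1.33e-04) dorsally and -0.73 (SE 0.14, adjusted p = 8.51e-05) ventrally, and lower in cortex than D1 striatum (-0.65 and -1.08). In a fit that also held each library's fraction of reads in genes, the ventral receptor difference was -0.19 (adjusted p = 0.410).

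Pde4a was 47.1 to 109 CPM (median 67.6) in cortex and 12.2 to 48.0 (median 34.5), 20.0 to 57.2 (median 34.6), 27.5 to 57.9 (median 39.2) and 29.6 to 62.2 (median 53.9) in the striatal groups in the order above. Unlike Pde4b it was higher in cortex than D1 striatum (1.16, SE 0.14, adjusted p = 2.79e-09 and 0.72, SE 0.11, adjusted p = 2.17e-07). Pde4d averaged 28.8 ± 3.27, 33.8 ± 7.29, 38.1 ± 5.21, 53.3 ± 11.3 and 37.1 ± 5.12 CPM. It was lower in dorsal than ventral striatum (-0.40 in D1 and -0.65 in D2) and lower in D1 than D2 ventral striatum (-0.46), a call lost in the fit with the fraction of reads in genes (-0.26, adjusted p = 0.189).

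A pair of cGMP-specific phosphodiesterases differed between cortex and striatum in opposite directions. Pde5a was 5.21 to 12.1 CPM (median 7.62) in cortex and at most 1.53 CPM in any striatal library: its ranges were 0.146 to 1.53 (median 0.662), 0 to 0.475 (median 0.133), 0.0962 to 1.07 (median 0.418) and 0 to 0.464 (median 0.0869). The differences of 2.95 (SE 0.14, adjusted p = 1.76e-21) and 3.14 (SE 0.13, adjusted p = 6.73e-24) separated the groups without overlap. Pde5a averaged under 1 CPM in both D1 striatal groups, so it passed the filter through cortex. Its differences ran from 2.46 to 3.64 and from 2.59 to 4.11 over the alternatives run. Pde9a was 4.17 to 6.55 CPM (median 5.48) in D1 and 1.80 to 6.64 (median 3.86) in D2 ventral striatum, 2.08 to 8.28 (median 3.59) and 0.653 to 3.91 (median 1.55) in D1 and D2 dorsal striatum, and 1.33 to 3.23 (median 1.78) in cortex. It was lower in cortex (-0.78 and -1.28). It was higher in D1 than D2 by 0.93 (SE 0.18, adjusted p = 1.46e-04) and 0.46 (SE 0.13, adjusted p = 0.00574), and lower dorsally than ventrally in both receptors (-0.50 and -0.97). The ventral receptor call was lost in EM libraries (0.33, adjusted p = 0.0686) and in the fit with the fraction of reads in genes (0.37, adjusted p = 0.213).

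The remaining tested phosphodiesterases averaged no more than 21.0 CPM in any group. Pde7a, specific for cAMP, averaged 6.51 ± 1.46, 7.55 ± 2.20, 7.97 ± 1.39, 12.7 ± 3.18 and 9.74 ± 1.83 CPM and was lower in D1 than D2 ventral striatum (-0.62), which the fit with the fraction of reads in genes did not call (-0.35, adjusted p = 0.10). Pde6d, the prenyl-binding protein, averaged 17.9 ± 3.78, 14.4 ± 3.84, 21.0 ± 3.60, 17 ± 3.26 and 12.2 ± 2.22 CPM and was lower in cortex (-0.52 and -0.76). Pde3b, inhibited by cGMP, averaged 3.28 ± 2.52 CPM in D2 ventral striatum and 0.995 to 1.20 CPM elsewhere, and D1 ventral striatum was lower than D2, with a log2 difference of -0.99 (SE 0.22, adjusted p = 4.58e-04), not called in the same fit (-0.57, adjusted p = 0.210). Pde11a, which takes both nucleotides, averaged 1.74 ± 0.534 CPM in D1 and 0.655 ± 0.402 CPM in D2 ventral striatum (1.00). Pde8a averaged 0.830 ± 0.636, 1.19 ± 0.996, 0.542 ± 0.248, 1.89 ± 1.08 and 0.879 ± 0.372 CPM.

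Per kilobase of exon, Pde10a took 30.3% ± 4.30 of the summed phosphodiesterase level in D1 dorsal striatum, 36.5% ± 4.80 in D2 dorsal striatum and 25.7% ± 4.00 in D2 ventral striatum, the highest mean share in each. In D1 ventral striatum Pde1b came first at 22.6% ± 2.19 and Pde10a second at 19.5% ± 1.37. In cortex Pde1a took 42.9% ± 5.45 and Pde10a 3.66% ± 2.32, of a summed level of 101.3 ± 14.0 CPM per kilobase that compares with 248 ± 30.2 in D1 dorsal and 225 ± 14.5 in D1 ventral striatum. These sums include Pde6d, at 3.40% ± 1.02, 2.39% ± 0.725, 4.33% ± 0.841, 3.39% ± 0.782 and 5.66% ± 1.31 in the 5 groups.

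Protein kinase A subunits split by isoform. Prkar1b, the neuron-rich type I regulatory subunit (chr5:139017306-139150001, minus strand), was 104 to 197 CPM (median 139) in D1 and 47.6 to 92.0 CPM (median 66.9) in D2 dorsal striatum, and 157 to 233 (median 171) in D1 and 67.8 to 127 (median 97.9) in D2 ventral striatum. Neither region's receptor groups overlapped (log2 difference 1.00, SE 0.09, adjusted p = 1.26e-11 and log2 difference 0.87, SE 0.09, adjusted p = 1.18e-09), and EM libraries alone gave 0.97 and 0.78. Cortex held 254 to 359 CPM (median 298), above every D1 striatal library (1.13, SE 0.07, adjusted p = 2.55e-17 and 0.76, SE 0.06, adjusted p = 1.13e-15). As for Pde1a and Adcy2, the higher D1 level stands beside higher cortical markers in D1 libraries, and their part was not tested. Other members higher in cortex did not share this order. Adcy1 was lower in D1 than D2 in both regions and Pde7a in ventral striatum, and Adcy6, Pde4a and Prkaca had no receptor call. Its exons overlap those of Gm15672 on the same strand over 8.95% of their length, and Gm15672 averaged 0.643 to 1.94 CPM.

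Prkar2b, a type II regulatory subunit, was 48.2 to 69.6 CPM (median 55.1) and 60.1 to 86.8 (median 66.9) in D1 and D2 dorsal striatum, 55.1 to 91.4 (median 70.6) and 60.8 to 136 (median 96.4) in D1 and D2 ventral striatum, and 17.5 to 34.5 (median 22.8) in cortex. It was lower in D1 than D2 (-0.28, SE 0.07, adjusted p = 0.00475 and -0.39, SE 0.09, adjusted p = 0.00105) and lower in cortex than D1 striatum without overlap (-1.29 and -1.62). The dorsal receptor call was lost in EM libraries (-0.25, adjusted p = 0.0773), and the ventral one in the fit with the fraction of reads in genes (-0.18, adjusted p = 0.356). Prkar2a, the other type II subunit, was 7.30 to 24.2 CPM (median 16.5), 3.38 to 22 (median 17.4), 28.0 to 41.9 (median 35.0) and 18.1 to 35.9 (median 29.2) in D1 dorsal, D2 dorsal, D1 ventral and D2 ventral striatum, and 22.5 to 38.5 (median 32.8) in cortex. Its dorsal levels were lower, with a log2 difference of -1.06 (SE 0.11, adjusted p = 1.75e-09) in D1, without overlap, and -0.80 (SE 0.17, adjusted p = 4.02e-04) in D2.

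The broadly used regulatory subunit Prkar1a averaged 249.7 ± 51.0, 272 ± 66.4, 281 ± 22.6, 313 ± 85.9 and 298 ± 66.7 CPM, and its 1 call, higher in cortex than D1 dorsal striatum (0.25, adjusted p = 0.0360), was lost under 5 alternatives. Of the catalytic subunits, Prkacb averaged 362 ± 47.2, 384 ± 65.5, 453 ± 62.8, 494 ± 119.7 and 314 ± 51.2 CPM and Prkaca 128 ± 51.0, 134 ± 54.4, 150.5 ± 47.2, 136 ± 39.4 and 195 ± 68.3 CPM. Against D1 dorsal striatum they went opposite ways in cortex, Prkaca higher (0.65, SE 0.17, adjusted p = 0.00155) and Prkacb lower (-0.21, SE 0.08, adjusted p = 0.0190), the latter lost in EM libraries (-0.18, adjusted p = 0.0528). Per kilobase Prkaca took 67.5% ± 5.12 of the catalytic pair in cortex and 53.6% ± 9.38 in D1 dorsal striatum. Among regulatory subunits Prkar1b took 49.8% ± 5.36 in cortex, 32.4% ± 4.98 and 33.9% ± 3.73 in D1 dorsal and ventral striatum, and 17.9% ± 3.63 and 20.1% ± 4.21 in D2 dorsal and ventral striatum.

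Both cGMP-dependent kinases were higher in ventral than dorsal striatum. Prkg1, the cytosolic kinase, was 5.54 to 8.96 CPM (median 6.78) in D1 and 2.10 to 8.90 (median 4.02) in D2 ventral striatum. It was 0.936 to 3.99 (median 1.55) in D1 and 0 to 5.43 (median 0.584) in D2 dorsal striatum, and 1.58 to 5.10 (median 3.25) in cortex. Dorsal levels were lower, with a log2 difference of -1.78 (SE 0.14, adjusted p = 7.80e-13) in D1, without overlap, and -1.99 (SE 0.26, adjusted p = 2.53e-07) in D2 (EM alone -1.64 and -1.29). The D1 excess over D2 was 0.94 (SE 0.25, adjusted p = 0.00540) in dorsal and 0.74 (SE 0.15, adjusted p = 1.59e-04) in ventral striatum. Dorsally it was 0.51 in EM libraries (adjusted p = 0.315), and edgeR and DESeq2 on recovered reads did not call it (adjusted p = 0.122 and 0.0976). Prkg2, the membrane-bound kinase, averaged 1.18 ± 1.61, 1.02 ± 0.437, 2.46 ± 0.848, 2.89 ± 1.13 and 1.42 ± 0.522 CPM and was lower dorsally (-1.06 in D1 and -1.13 in D2). Its dorsal means lie close to the filter of 1 CPM, and it was not tested between receptors in dorsal striatum. Over the alternatives that tested it the regional differences ran from -1.46 to -0.81 in D1 and from -1.42 to -0.92 in D2, all called. With a pseudocount of 1 neither was at least 2-fold.

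**Figure D3:**
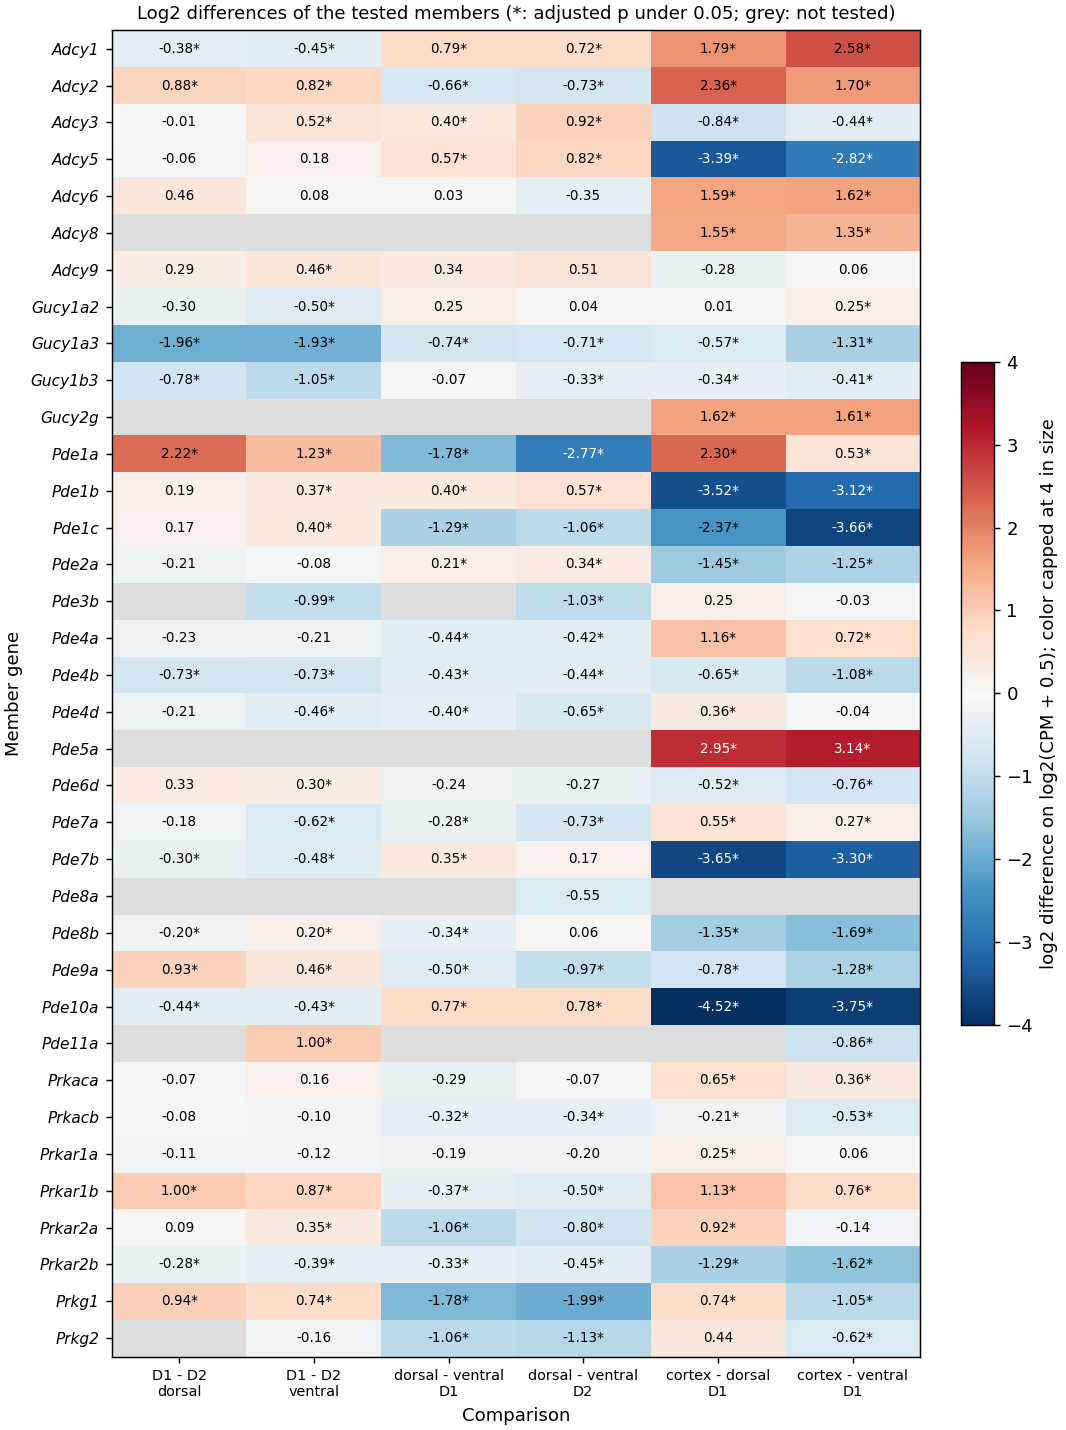
Log2 differences on log2(CPM + 0.5) of the 36 tested members (rows, by family) in the 6 pairwise comparisons (columns), with an asterisk at an adjusted p under 0.05 and grey where a gene was not tested. The cortex columns hold the deepest colors, from Pde10a at -4.52 to Pde5a at 3.14, and no dorsal against ventral difference of at least 2-fold is positive.

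Counted over the members, D1 against D2 in dorsal striatum called 13 of 29 tested, 5 higher and 8 lower in D1, beside 25.9% of all genes; 3 were at least 2-fold (Pde1a and Prkar1b higher, Gucy1a3 lower), beside 3.36%. Adcy6 and Prkg1 averaged under 1 CPM in the lower group, and without them 12 of 27 were called, 4 higher and 8 lower. Scaling to reads in genes gave 6 higher and 5 lower, and quantile normalization 5 and 4, while EM libraries alone gave 7 calls, 4 higher and 3 lower. More calls stayed lower than higher with edgeR (4 higher and 8 lower), DESeq2 (4 and 9), a filter of 5 CPM (2 and 8) and 1 fit of all 5 groups (6 and 10). The ventral comparison called 24 of 32, 13 of them higher and 11 lower in D1, beside 47.7%; 4 were at least 2-fold (Pde1a and Pde11a higher, Gucy1a3 and Gucy1b3 lower), beside 3.62%. Pde11a averaged under 1 CPM in D2, and without it 23 of 31 were called, 12 higher and 11 lower, with 1 higher and 2 lower at least 2-fold. Pde1a and Gucy1a3 were at least 2-fold in both regions under every alternative run, while the count went from 2 to 5 in each. All 13 dorsal calls were among the 24 ventral calls (100% of the first and 54.2% of the second), 12 in the same direction and Pde8b in the opposite one. Over all genes 2109 calls were shared (73.5% of the 2871 dorsal and 38.7% of the 5443 ventral calls), 2089 of them in the same direction. In the fit with the fraction of reads in genes the ventral count was 11, with the calls of Adcy3, Adcy9, Gucy1a2, Pde10a, Pde1b, Pde3b, Pde4b, Pde4d, Pde6d, Pde7a, Pde9a, Prkar2a and Prkar2b lost. That fraction itself differed with the receptor there, at 35.1 ± 1.64% in D1 and 38.0 ± 1.5% in D2 libraries (SD), so the fit holds a covariate that moves with the contrast, and its part and the receptor's cannot be told apart in full. The median difference of the members tested was -0.08 dorsally and 0.00 ventrally, beside 0.02 for all genes in each region.

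Dorsal against ventral striatum called 23 of 30 members in D1, 7 higher and 16 lower, beside 34.6% of all genes, and 23 of 32 in D2, 6 higher and 17 lower, beside 28.5%. In each receptor 5 members were at least 2-fold lower dorsally and 0 at least 2-fold higher, beside 3.45% of genes in D1 and 4.15% in D2: Pde1a, Pde1c, Prkg1 and Prkg2 in both, Prkar2a in D1 and Pde3b in D2. In D2, Adcy6 and Prkg1 averaged under 1 CPM in the lower group, and without them 22 of 30 were called, 6 higher and 16 lower, with 4 lower at least 2-fold. Prkg2 in both receptors and Pde3b in D2 passed that cut with dorsal means close to 1 CPM and stayed in these counts. Neither passed the filter for D1 against D2 in dorsal striatum. Over the alternatives run, 3 to 6 members were at least 2-fold lower in D1 and 0 higher. In D2 it was 2 to 6, and Adcy3 was at least 2-fold higher dorsally under median-ratio scaling, quantile normalization, edgeR and DESeq2, and Adcy1 in OdP libraries alone. Of the 23 calls in each receptor 21 were shared (91.3% of each), all 21 in the same direction. Over all genes 2015 calls were shared (51.4% of the 3918 in D1 and 63.2% of the 3189 in D2), 1982 of them in the same direction. The regional and receptor comparisons use the same striatal libraries. The median of all genes was itself -0.12 in both comparisons, and -0.31 in D1 and -0.38 in D2 for the members. Scaling by median ratios put the all-gene median at -0.01 in D1 and 0.01 in D2 and the calls at 9 higher and 13 lower in D1 and 8 and 13 in D2. Under that scaling the lower dorsal values of Pde4a (-0.33 in D1 and -0.28 in D2), Pde4b (-0.32 and -0.31), Pde7a in D1 (-0.18) and Prkacb in D2 (-0.21) kept their direction and were not called. Marker sums moved with region as well: the 5 markers shared by both kinds of striatal projection neuron summed to 1332 to 2402 CPM (median 1861) in D1 dorsal and 1152 to 1461 CPM (median 1276) in D1 ventral striatum, and to 1949 to 3021 CPM (median 2482) and 1167 to 1815 CPM (median 1627) in D2. Oligodendrocyte and GABA interneuron sums, given above for each group, had higher medians dorsally in D1, and in D2 the oligodendrocyte median was higher and the GABA interneuron median lower dorsally. The 4 choroid plexus markers summed to 1.28 to 41.8 CPM (median 5.00) in D1 dorsal and 2.66 to 5.20 CPM (median 3.45) in D1 ventral striatum, and to 1.33 to 37.9 CPM (median 8.97) and 2.41 to 5.97 CPM (median 4.19) in D2. Within that list Ttr had higher means dorsally (8.80 against 0.248 CPM in D1, 12.4 against 0.574 CPM in D2) and Kl lower ones (1.10 against 3.29 CPM, 1.76 against 3.63 CPM), while Folr1 and Kcnj13 averaged under 1 CPM. Their part in the regional differences was not tested.

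Prefrontal cortex against D1 dorsal striatum called 30 of 34 members, 15 higher and 15 lower, beside 54.8% of all genes, and 17 were at least 2-fold, 9 higher and 8 lower, beside 16%. Set against D1 ventral striatum, cortex had 30 calls of 35, 12 higher and 18 lower, beside 62.8%, and 18 were at least 2-fold, 6 higher and 12 lower, beside 14.2%. The 2 comparisons share the cortical libraries. Some members averaged under 1 CPM in the lower group and so entered through the group where they were high: Adcy8, Gucy2g, Pde5a and Pde3b against dorsal striatum, and Adcy8, Gucy2g, Pde5a and Pde11a against ventral striatum. Among the others, 12 were higher and 15 lower in cortex than D1 dorsal striatum, and 9 higher and 17 lower than D1 ventral striatum. At least 2-fold were 6 higher and 8 lower of these against dorsal, and 3 higher and 12 lower against ventral striatum. By family and without them, 3 adenylyl cyclases were higher and 2 lower in each comparison, 2 guanylyl cyclases were lower in each and 1 was higher against ventral striatum alone, and of the phosphodiesterases 4 were higher and 9 lower against dorsal and 3 higher and 9 lower against ventral striatum. GABA interneuron markers summed to 97.1 to 259 CPM (median 164) in cortex and 13.9 to 57.8 CPM (median 31.2) in D1 dorsal striatum, and astrocyte markers to 9.40 to 55.4 CPM (median 25.1) and 3.34 to 15.9 CPM (median 6.16). The cortical group thus holds markers of glutamatergic and GABA neurons, and the part of each in these differences was not tested.

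The interaction test, which asks whether the D1 minus D2 difference differs between dorsal and ventral striatum, called 3 of 34 members, beside 2.64% of all genes. They were Pde1a at 0.99, Pde8b at -0.40 and Pde11a at -0.91 (adjusted p = 0.00480), and in EM libraries only Pde8b was called. Pde11a entered the test through ventral striatum alone. Its dorsal means of 0.170 ± 0.173 CPM in D1 and 0.120 ± 0.121 CPM in D2 lie under the pseudocount, so its value largely repeats the ventral difference, and the call was lost with a pseudocount of 0.1 (adjusted p = 0.0938), edgeR (0.573) and DESeq2 (0.532).

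**Figure D4:**
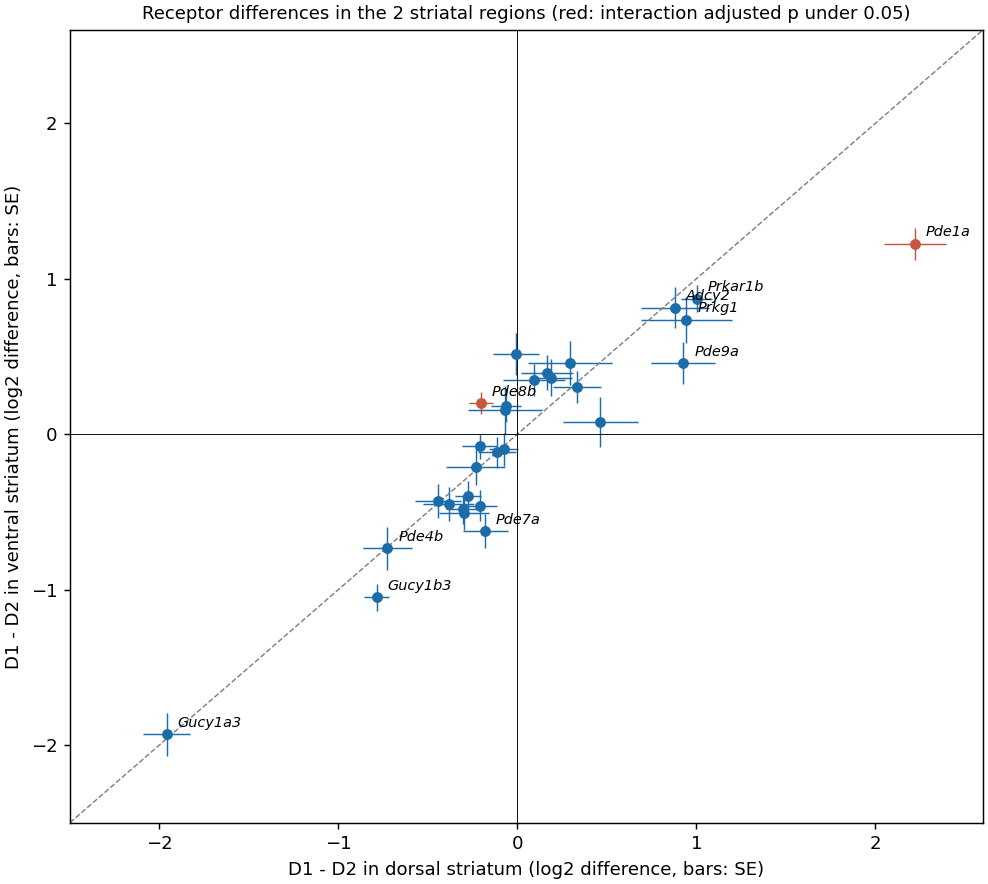
D1 minus D2 log2 difference of each member tested in both striatal regions, dorsal on the x axis and ventral on the y axis, with SE bars, a dashed line of equality and red where the interaction passed an adjusted p of 0.05. Gucy1a3 lies near the line at -1.96 and -1.93, and Pde1a lies off it at 2.22 and 1.23.

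Genes around the cascade were given as 5 lists of 62 genes: G proteins coupled to adenylyl cyclase, protein kinase A anchors and inhibitors, protein kinase A and cAMP targets, cyclic nucleotide-gated channels, and nitric oxide and natriuretic peptide inputs to cGMP. In prefrontal cortex against D1 dorsal striatum 33 of 44 tested were called, 18 higher and 15 lower, beside 54.8% of all genes, with a median of 0.01 beside 0.05 for all genes. The G protein genes held changes in both directions. Gnal, the alpha subunit of Golf, was lower in cortex (-2.19, SE 0.14; 160.2 ± 52.1 against 726 ± 211 CPM), as were its gamma partner Gng7 (-4.40, SE 0.20) and Ric8b (-2.07, SE 0.06), which helps to fold the alpha subunit. Gnas, the alpha subunit of Gs, was higher (2.51, SE 0.12; 899 ± 151 against 163 ± 52.4 CPM), as were the inhibitory subunits Gnai1 (1.17, SE 0.13) and Gnai2 (1.21, SE 0.14). Against ventral striatum Gnal was -2.02 (SE 0.13), Gng7 -4.42 (SE 0.19), Ric8b -1.87 (SE 0.06) and Gnas 1.97 (SE 0.08).

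Of 15 tested anchors and inhibitors, 13 were called in cortex against D1 dorsal striatum, 5 higher and 8 lower, beside the same 54.8%. Akap5, an anchor that holds protein kinase A at synapses, was lower (-2.17, SE 0.07), as was Akap9 (-2.16, SE 0.11), while Akap7 (2.05, SE 0.10), Akap2 (1.02, SE 0.12), Akap13 (1.25, SE 0.15) and the kinase inhibitor gene Pkib (1.70, SE 0.21) were higher. Among targets Ppp1r1b, which encodes DARPP-32, was lower (-4.93, SE 0.25; 37.3 ± 31.3 against 944 ± 218 CPM), with Arpp21 (-2.69, SE 0.10) and Arpp19 (-1.08, SE 0.08), and Stmn1 was higher (2.44, SE 0.21). Ppp1r1b is also 1 of the 5 striatal markers. Nos1, the neuronal nitric oxide synthase, was higher in cortex (1.04, SE 0.14), as was Nos1ap (1.15, SE 0.12). Against ventral striatum Nos1 was 0.01 (SE 0.10), not called.

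Set against D1 ventral striatum, cortex had 32 calls among 44 list genes, 15 higher and 17 lower, beside 62.8% of all genes, with Akap5 -2.43 (SE 0.07), Akap9 -1.55 (SE 0.09), Akap7 1.64 (SE 0.10), Akap2 1.12 (SE 0.10), Ppp1r1b -4.56 (SE 0.23), Arpp21 -2.80 (SE 0.09) and Stmn1 2.08 (SE 0.14). Within striatum, D1 against D2 called 17 of 41 list genes dorsally, beside 25.9% of all genes, and 17 of 43 ventrally, beside 47.7%, with 9 higher and 8 lower in each. Gnai1 was higher in D1 dorsal striatum (1.54, SE 0.16; 109.5 ± 37.0 against 38.1 ± 15.6 CPM), Stmn1 in both regions (2.17, SE 0.29 and 1.32, SE 0.26) and Pkib in ventral striatum (1.56, SE 0.17). Gnai1, Stmn1 and Pkib were also higher in cortex than in D1 dorsal striatum, beside the cortical markers given above. Arpp19 was lower in D1 ventral striatum (-1.18, SE 0.10; 317 ± 45.8 against 726 ± 144 CPM).

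Dorsal against ventral striatum called 22 of 43 list genes in D1, 8 higher and 14 lower, beside 34.6% of all genes, and 19 of 41 in D2, 6 higher and 13 lower, beside 28.5%. The list medians were -0.10 in both receptors, beside the all-gene median of -0.12. Nos1 was lower dorsally in both receptors (-1.02, SE 0.16 in D1 and -1.57, SE 0.12 in D2), as were Gnai2 (-1.26, SE 0.13 and -1.39, SE 0.18), Pkib in D1 (-1.36, SE 0.21), and Gnas (-1.19, SE 0.11), Gnai1 (-1.63, SE 0.15) and Stmn1 (-1.22, SE 0.30) in D2. The interaction called 4 of 43 list genes, beside 2.64% of all genes. All 4 were positive, as were 229 of the 313 calls over all genes, and they are named here after their values were seen: Gnas (0.65, SE 0.18), Gnai1 (0.81, SE 0.19), Akap12 (1.04, SE 0.26) and Arpp19 (0.52, SE 0.12). In EM libraries none of the 4 was called (adjusted p from 0.0621 to 0.222), while the pairwise differences named here kept their direction and call.

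The 13 members tested in no comparison stayed near or under 1 CPM. Adcy7 (highest library 1.32 CPM), Pde3a (1.59 CPM), Gucy2e (0.952 CPM), Gucy2f (0.760 CPM) and Gucy2c (0.504 CPM) were the highest of them. Pde4c reached 0.380 CPM, Pde6c 0.313 CPM, Pde6a 0.284 CPM and Pde6b 0.245 CPM, the Pde6 genes being the photoreceptor phosphodiesterases. Adcy10 reached 0.228 CPM, Gucy1b2 0.139 CPM and Adcy4 0.122 CPM. Gucy2d was listed at 0 in all 79 libraries.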

How the data were processed

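Per the labels' protocols, ribosome-bound RNA was captured, amplified as cDNA and sequenced in paired 50-base reads. The authors deposited 1 table of CPM values (gene reads relative to a library total), whose 79 columns were all matched to samples. Per the submitters' processing notes, Trim Galore 0.4.2, cutadapt 1.9.1, FastQC, HISAT2 and GRCm38 were used; the counting program, its strand setting and the annotation are not given in the sources used here. Values were whole multiples of 1 step per column (100% within 0.001 of a whole read), and reads in genes were 31.0% to 40.2% of the scaling total. The labels name no molecular identifiers, so depth speaks of counting error only.

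Each comparison held its groups alone. R 4.3.3 and limma 3.58.1 with an intensity trend were run on log2(CPM + 0.5), over genes with at least 1 CPM in as many libraries as the smaller group; tests were two-sided, Benjamini-Hochberg adjusted, called at 0.05. Differences on this scale understate those of low genes. edgeR 4.0.16 and DESeq2 1.42.0 on recovered reads, other scalings, filters, pseudocounts, covariates and library subsets were alternatives. Whether 1 pool of mice gave libraries of several regions is not in the labels, and p-values measure the spread between these libraries. Exon lengths and positions are from GENCODE vM21, promoters from RefSeq. Members, lists and tests were chosen with earlier results of these data known. A marker and a list gene are not reported here and were left out of the sums and counts. Ranges with medians and tests were given for members called and at least 2-fold different in any comparison, or called in the interaction, where a group mean reached 5 CPM; the other tested members by means; list genes when called, at least 2-fold and at least 5 CPM in the higher group. The method was tested on simulated data before use.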

Additional observations from a re-analysis of the deposited data

Results flagged for a closer look

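3 members were noted because the D1 minus D2 difference itself differed between dorsal and ventral striatum in the limma interaction test (Benjamini-Hochberg adjusted p under 0.05). Pde1a differed by 0.99 (SE 0.21, adjusted p = 0.00171), as its excess in D1 was larger dorsally (2.22) than ventrally (1.23). Pde8b differed by -0.40 (SE 0.09, adjusted p = 0.00363), from -0.20 dorsally to 0.20 ventrally. Pde11a differed by -0.91 (SE 0.21, adjusted p = 0.00480); it averaged 0.170 ± 0.173 and 0.120 ± 0.121 CPM in D1 and D2 dorsal striatum, under the level set for testing there, so its dorsal difference was not tested alone. In EM libraries the values were 0.77 for Pde1a, -0.47 for Pde8b and -0.93 for Pde11a, of which Pde8b alone was called. The Pde11a call was also lost with a pseudocount of 0.1 (-1.30, adjusted p = 0.0938), edgeR (-0.82, adjusted p = 0.573) and DESeq2 (-0.83, adjusted p = 0.532), and its dorsal means lie under the pseudocount.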

How the results depend on the processing

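Of 146 member differences called, 111 kept direction and call under every alternative that tested them, 0 reversed, and 35 lost the call under at least 1, most often in EM libraries alone (19). The filter of 5 CPM tested 122 of the 146, so low genes were not put to that alternative. Member counts moved by over 1.5 times in 3 cases: D1 against D2 in dorsal striatum gave 7 in EM libraries alone against 13, the ventral comparison 11 in the fit holding the fraction of reads in genes against 24, and the interaction 1 in EM libraries alone against 3. The EM fits hold fewer libraries; otherwise the cause was not tested. Over all genes the counts were 1389 (EM alone) and 1658 (name code as covariate) against 2871 for D1 against D2 dorsally, 1218 (share of reads in genes) against 5443 ventrally (where that share differs between D1 and D2 libraries), 2074 (OdP alone) against 3189 for dorsal against ventral D2, and 480 (name code) against 313 for the interaction. edgeR on recovered reads called 2966 and 5370 genes between receptors (dorsal and ventral), 3245 and 2682 between striatal regions (D1 and D2), 6591 and 7287 for cortex against dorsal and ventral striatum, and 300 in the interaction. Scaling to reads in genes moved the all-gene median of the ventral receptor comparison from 0.02 to 0.13. Leaving out D1 prefrontal cortex replicate 6 or D2 dorsal striatum replicate 1, chosen after seeing the data, or D2 ventral striatum replicate 2 lost no member call. No paired analysis was run. Replicate numbers follow the sample order, and no label states which libraries of different groups share mice. Many library names run in consecutive numbers across regions of the same receptor, and 1 pair differs only in a suffix. If such libraries share mice, the regional tests treat linked libraries as independent. Values below about 1 CPM rest on few reads in the shallowest libraries.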
